A study of Mus musculus with 24 samples.

Results

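Epithelial-mesenchymal transition genes were followed as 9 gene symbols, Cdh1, Cdh2, Epcam, Vim, Snai1, Snai2, Zeb1, Zeb2 and Twist1, taken by name from the 22609 symbols counted in each library. The series is RNA-seq of E14TG2a cells, a feeder-free line of mouse embryonic stem cells (mESCs) of the 129/Ola strain kept in serum with the cytokine LIF. Each of 8 groups has 3 libraries, 24 in all, made from poly-A RNA with strand kept and read over 50 bp. The mESC groups were untransfected cells and cells stably transfected with a short hairpin: shNMC, a control hairpin without a mammalian target, or hairpins against Med12 (a Mediator subunit), Cdk8 (the kinase of the Mediator kinase module) or Ring1b (the Polycomb ubiquitin ligase, gene symbol Rnf2). The RA groups were shNMC, shMed12 and shCdk8 cells after 24 h in 1e-06 M all-trans retinoic acid (RA) with LIF removed, so RA and LIF removal cannot be told apart. All groups share the cell line, and all but the untransfected cells carry a hairpin. The sources do not say how many hairpins or clones stand behind each target, or whether the 3 libraries of a group came from separate cultures, so p-values measure only the spread between these libraries.

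In an epithelial-mesenchymal transition, polarised cells that are joined by adherens junctions loosen them and take on a migratory, mesenchymal form, as cells do when they leave the primitive streak. E-cadherin (Cdh1) and the adhesion molecule EpCAM (Epcam) hold epithelial cells together. N-cadherin (Cdh2) and the intermediate filament vimentin (Vim) mark mesenchymal cells. The zinc finger factors Snai1, Snai2, Zeb1 and Zeb2 and the helix-loop-helix factor Twist1 are known repressors or regulators of E-cadherin, and the zinc finger factors bind short E-box motifs. Mouse embryonic stem cells are known for high E-cadherin.

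Reads counted in genes came to 27.4 to 34.1 M per library for untransfected and shRing1b cells (6 libraries) and to 37.8 to 57.3 M for the other 18. The 2 sets also differed in the share of reads without a unique place, 20.0% to 21.7% against 44.1% to 49.1%, and shNMC against untransfected cells crosses them. Reads of the targeted genes checked the labels. Med12 stood at 35.2 to 46.2 CPM (counts-per-million, TMM-scaled) in shMed12 mESCs and at 129 to 140 CPM (139.6 at the top) in shNMC mESCs, and Cdk8 at 10.7 to 15.2 CPM in shCdk8 mESCs and at 50.1 to 56.1 CPM in shNMC mESCs. Rnf2 was at 52.4 and 64.2 CPM in libraries 1 and 2 of shRing1b, but the library labelled shRing1b replicate 3 held 207 CPM, close to the 221 to 303 CPM of untransfected cells, and goes against its label. The 10 pluripotency markers summed to 3493 to 5908 CPM over all mESC libraries and to 1675 to 2827 CPM after RA, and all 10 reached 1 CPM in every group.

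All 9 genes passed the filter on low counts. To compare genes with each other, CPM were divided by the length of the merged exons in GENCODE M21. In shNMC mESCs the level per kilobase was 154 ± 9.26 CPM (SD, n = 3) for Cdh1, 63.6 ± 2.37 for Epcam and 18.7 ± 2.85 for Vim. The repressors were lower on this scale: Zeb1 3.19 ± 0.153, Twist1 1.22 ± 0.176, Snai1 1.15 ± 0.279, Snai2 0.672 ± 0.0252 and Zeb2 0.249 ± 0.0261 CPM per kilobase. Cdh2 was at 0.608 ± 0.0324 CPM per kilobase in the same cells. Twist1 and Snai1 overlapped between libraries, while the other neighbours in this order did not.

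Across the 8 groups the genes did not share an order. Group means in CPM, not divided by length, differed most for Zeb1, 6.10-fold between its highest group (RA shCdk8) and its lowest (mESC shMed12). The highest group mean over the lowest was 5.35-fold for Snai1, 5.10-fold for Zeb2, 3.27-fold for Cdh2, 3.11-fold for Cdh1, 2.89-fold for Epcam, 2.88-fold for Snai2, 2.56-fold for Twist1 and 1.65-fold for Vim. Cdh1 and Epcam were both highest in the 2 shMed12 groups and lowest in RA shCdk8. Zeb1 ran from RA shCdk8 (55.4 CPM) and mESC shCdk8 (54.1 CPM), whose libraries overlapped, through shNMC, untransfected and shRing1b cells (28.2 to 34.6 CPM), to the 2 shMed12 groups (10.7 and 9.09 CPM), which also overlapped each other. For Vim, each group overlapped the next one in the order of means.

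**Figure D1:**
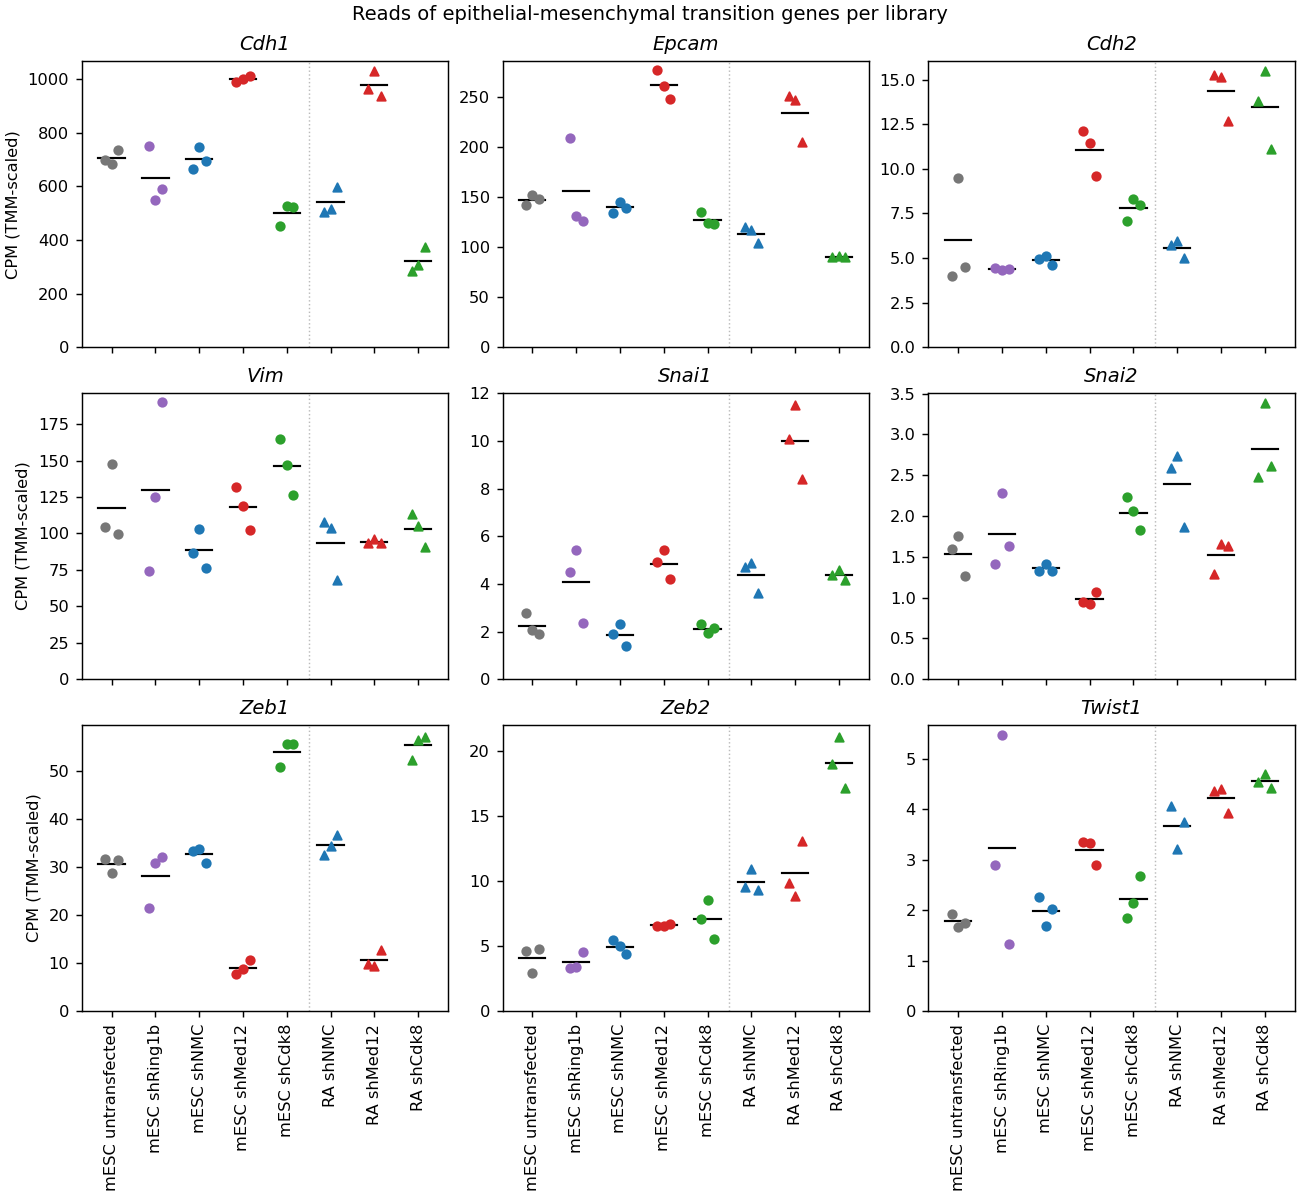
CPM (vertical axis, TMM-scaled, from 0) of the 9 genes in every library, by group along the horizontal axis; points are libraries (circles mESC, triangles RA), lines are group means. Zeb1 is lowest in the 2 shMed12 groups, at 7.82 to 12.7 CPM, and highest in the 2 shCdk8 groups, at 50.9 to 57.3 CPM.

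RefSeq promoter windows of build GRCm38.p6 were searched for 5 of the 9 genes. No window was matched for Cdh1 or Snai2. The search of the 9 genes left out the chromosome that holds Zeb1 and Cdh2, so any windows of these 2 genes were not read. The count over all windows below kept that chromosome. In each window, the 250 bases before the annotated start were searched for the E-box letters CACCTG and CAGGTG. These are each other's reverse complement, so that both strands are covered. Epcam and Snai1 held a match; Vim, Twist1 and the 4 windows of Zeb2 held none of these letters. The matches begin 187 and 19 bases before the Epcam start and 126 bases before the Snai1 start. Of all 32851 windows of this length, 17.2% held at least 1 match and 2.06% held 2 or more. The windows of Epcam (chr17:87635729-87635978, plus strand) and Snai1 (chr2:167537945-167538194, plus strand), the only genes searched that held a match, are shown. Capitals mark the E-box letters. Both genes rose with the Med12 hairpin, as did Cdh1 and Cdh2, which were not searched. A match in a window is a description of its letters and not of binding.
Epcam: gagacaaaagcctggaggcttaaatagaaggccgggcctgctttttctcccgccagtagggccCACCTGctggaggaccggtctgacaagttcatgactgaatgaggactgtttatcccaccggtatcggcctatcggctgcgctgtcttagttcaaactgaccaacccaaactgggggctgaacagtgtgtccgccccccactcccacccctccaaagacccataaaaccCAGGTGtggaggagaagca
Snai1: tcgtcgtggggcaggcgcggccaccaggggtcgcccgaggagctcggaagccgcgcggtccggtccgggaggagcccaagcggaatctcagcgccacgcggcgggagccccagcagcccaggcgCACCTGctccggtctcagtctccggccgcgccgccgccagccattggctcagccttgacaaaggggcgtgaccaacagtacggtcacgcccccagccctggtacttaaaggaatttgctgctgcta

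With the Med12 hairpin, the epithelial Cdh1 and Epcam and the mesenchymal Cdh2 rose together in mESCs, while Zeb1 fell and Vim did not pass. In the edgeR fit across all 16280 genes tested, 4 of the 9 genes rose against shNMC (Cdh1, Epcam, Cdh2, Snai1), 1 fell (Zeb1) and 4 did not pass, where 40.5% of all genes were called (20.6% higher, 19.9% lower). The median log2 change was 0.51 over the 9 genes and -0.01 over all genes tested.

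Zeb1, a repressor of E-cadherin, moved most. It was counted at 7.82, 8.77 and 10.7 CPM in shMed12 mESCs and at 33.3, 33.9 and 30.9 CPM in shNMC mESCs. All 3 shMed12 libraries lay far below all shNMC libraries, and the level was 3.59-fold lower (log2 change -1.85, SE 0.14, edgeR adjusted p = 8.6e-10). Cdh1 was at 989.7, 999 and 1012 CPM in shMed12 mESCs against 665, 748 and 694 CPM. The groups did not overlap, and E-cadherin reads were 1.42-fold higher (log2 0.51, SE 0.11, adjusted p = 6.1e-04). Epcam was at 276, 261 and 248 CPM against 135, 145 and 139 CPM, 1.87-fold higher (log2 0.91, SE 0.13, adjusted p = 7.3e-06), again without overlap.

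The mesenchymal cadherin rose beside the epithelial one. Cdh2 was at 12.1, 11.4 and 9.63 CPM in shMed12 mESCs and at 4.96, 5.13 and 4.62 CPM in shNMC mESCs. Each shMed12 library was above each control, 2.25-fold in the fit (log2 1.17, SE 0.22, adjusted p = 1.5e-04). Snai1, the Snail repressor, was at 4.94, 5.44 and 4.19 CPM against 1.91, 2.3 and 1.40 CPM, also without overlap, and was 2.58-fold higher (log2 1.37, SE 0.24, adjusted p = 1.1e-04). The other Snail factor pointed the other way without passing: Snai2 was at 0.923 to 1.07 CPM against 1.33 to 1.42 CPM (log2 -0.47, SE 0.22, adjusted p = 0.092). Vim (log2 0.41, adjusted p = 0.16), Zeb2 (log2 0.41, adjusted p = 0.090) and Twist1 (log2 0.68, adjusted p = 0.065) did not pass either. A fit of these 6 libraries alone put Vim (adjusted p = 0.0060), Zeb2 (0.017) and Twist1 (0.0041) past the threshold, 8 of the 9 genes in all, and called 8051 genes over all in place of 6594.

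After RA the 5 genes called in mESCs were called again, in the same directions, and Snai2 fell as well. In RA shMed12 against RA shNMC, 4 of the 9 genes rose and 2 fell, where 41.9% of all genes were called (21.3% higher, 20.6% lower). Zeb1 was at 9.76, 9.50 and 12.7 CPM against 32.5, 34.5 and 36.7 CPM, 3.24-fold lower (log2 -1.70, SE 0.14, edgeR adjusted p = 3.1e-09). Cdh1 was at 964, 1030.05 and 937 CPM against 505, 517 and 599 CPM, 1.81-fold higher (log2 0.85, SE 0.11, adjusted p = 1.8e-06). The lowest RA shMed12 library was thus above the highest of all RA shNMC and RA shCdk8 libraries for Cdh1, and the reverse held for Zeb1. Epcam was at 251, 247 and 205 CPM against 119.9, 117 and 104 CPM (log2 1.05, SE 0.13, adjusted p = 1.3e-06). Cdh2 was at 15.3, 15.2 and 12.7 CPM against 5.75, 5.95 and 5.03 CPM (log2 1.37, SE 0.21, adjusted p = 2.6e-05). Snai1 was at 10.1, 11.5 and 8.41 CPM against 4.70, 4.86 and 3.61 CPM (log2 1.19, SE 0.23, adjusted p = 3.0e-04), its highest level of any group.

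Snai2 fell to 1.29, 1.66 and 1.63 CPM from 2.59, 2.73 and 1.86 CPM (log2 -0.65, SE 0.20, edgeR adjusted p = 0.013). The groups did not overlap, but the call rested on single libraries: without RA shMed12 replicate 1, RA shNMC replicate 1 or RA shNMC replicate 2 the adjusted p was 0.059, 0.051 and 0.060. Vim (log2 0.02), Zeb2 (0.09) and Twist1 (0.20) did not pass in RA shMed12 cells.

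**Figure D2:**
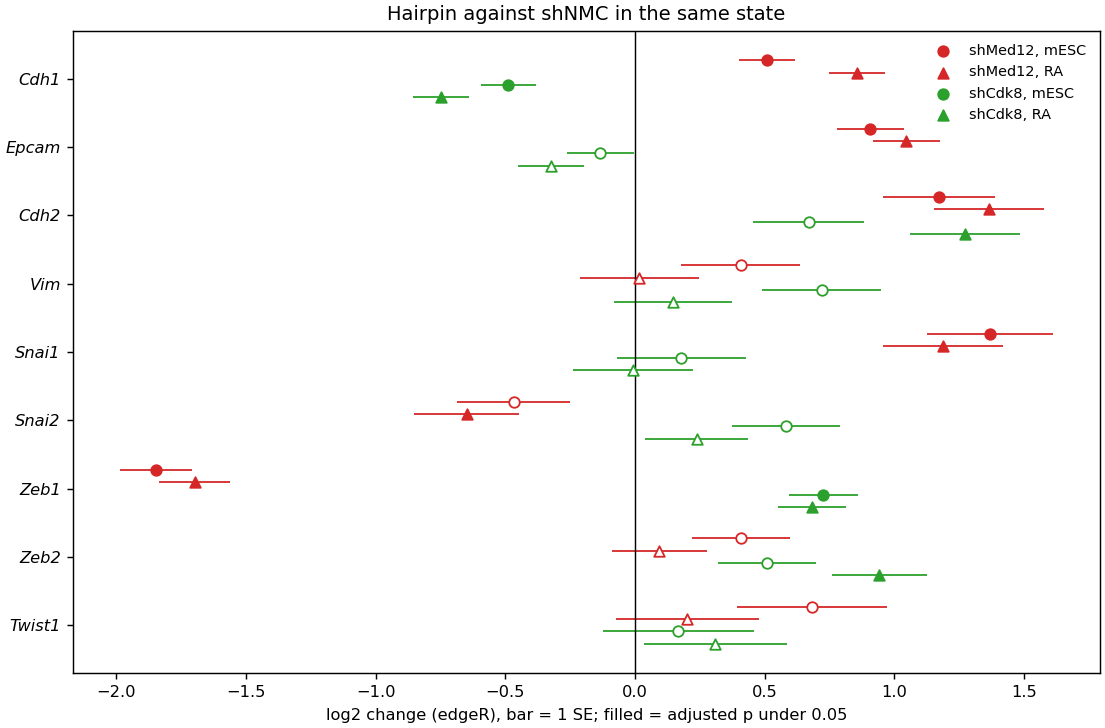
Log2 change of each of the 9 genes (horizontal axis) for shMed12 and shCdk8 against shNMC in mESCs (circles) and after RA (triangles), with bars of 1 SE; filled symbols passed the adjusted threshold. Zeb1 and Cdh1 lie on opposite sides of 0 for the 2 hairpins, Zeb1 at -1.85 and -1.70 for shMed12 and at 0.73 and 0.68 for shCdk8.

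Other genes of the pathway, from lists chosen with earlier results of these libraries known, were counted beside the 9. Their counts are read beside the 40.5% (mESCs) and 41.9% (RA) of all genes called with the Med12 hairpin. Of 34 epithelial junction and polarity genes, 30 rose and 0 fell in shMed12 mESCs (median log2 change 1.24), and 33 rose and 1 fell after RA (median 1.57), against medians of -0.01 and 0.00 (-0.00384) over all genes. The simple-epithelial keratin Krt18 went from 11.2 ± 1.95 to 388 ± 52.1 CPM (SD, n = 3) in mESCs. The 1 gene that fell after RA was Pkp1, a plakophilin (log2 -1.01, edgeR adjusted p = 0.015), named after its value was seen. Of 8 catenins and other cadherin partners, 6 rose and 0 fell in either state, among them Jup (plakoglobin), at 224 ± 13.7 against 130.3 ± 9.42 CPM in mESCs, and Ctnnd1 (p120 catenin), at 468 ± 16.2 against 294 ± 14.3 CPM.

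Of 11 epithelial regulators, 6 rose and 2 fell in shMed12 mESCs, and 5 rose and 2 fell after RA. Grhl2, a grainyhead factor of epithelia, was at 108 ± 3.50 against 36.7 ± 4.37 CPM in mESCs, and Esrp1, a splicing factor of epithelial cells, at 198 ± 1.53 against 75.4 ± 3.93 CPM. The 2 that fell were Klf4 (log2 -1.84 in mESCs, -1.58 after RA) and Klf5 (-0.90 and -0.51), which are also known as pluripotency factors; Klf5 was named after its values were seen.

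Mesenchymal genes were called in the same cells. Of 35 mesenchymal effector genes tested, 25 rose and 4 fell in shMed12 mESCs (median log2 change 2.29), and 23 rose and 6 fell after RA (median 0.94). Tagln, an actin-binding protein of smooth muscle, was at 273 ± 26.9 against 2.10 ± 0.441 CPM in mESCs, and Acta2, smooth muscle actin, at 59.0 ± 9.85 against 0.239 ± 0.0718 CPM. Of 17 other mesenchymal transcription factors, 10 rose and 3 fell in mESCs. After RA 6 rose and 2 fell; without RA shMed12 replicate 1 or 2, or RA shNMC replicate 2 or 3, that sum of 8 became 5. Of 20 TGF-beta pathway genes, 7 rose and 3 fell in mESCs (median log2 change 0.08) and 9 rose and 2 fell after RA (median 0.25), where 40.5% and 41.9% of all genes were called, with the ligand Tgfb2 at 16.2 ± 1.66 against 0.686 ± 0.0624 CPM in mESCs.

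Markers of other cell types moved with these groups. The summed level of 15 fibroblast or feeder cell markers was 356 to 401 CPM in shMed12 mESCs and 28.9 to 30.0 CPM in shNMC mESCs, and 367 to 412 CPM against 72.3 to 73.5 CPM after RA. In shMed12 mESCs 10 of the 15 reached 1 CPM, against 6 in shNMC mESCs. Tagln (273 CPM) and Acta2 (59.0 CPM) are on this list too and made up most of the sum in shMed12 mESCs. Pdgfra (1.85 against 9.27 CPM) and Thy1 (3.48 against 7.38 CPM) were lower in shMed12 than in shNMC mESCs. The rest of the list had means at or above those of shNMC mESCs. Fap was at 0 in mESCs of both lines, and Dcn (0.370 ± 0.245 CPM) and Lum (0.112 ± 0.105 CPM) were near 0 in shMed12 mESCs. The summed level of 11 trophectoderm markers was 629 to 804 CPM in shMed12 mESCs against 48.9 to 60.9 CPM in shNMC mESCs, and 727 to 945 CPM against 59.2 to 65.9 CPM after RA. None was at 0 in these groups, and 4 are keratins that are also on the epithelial list. The keratins Krt18 and Krt8 made up most of the sum in shMed12 mESCs (388 and 147 CPM) and in RA shMed12 cells (484 and 172 CPM). Ascl2 was at 2.56 CPM in shMed12 mESCs against 2.75 CPM in shNMC mESCs. The rest of the list had higher means in shMed12 mESCs, with Elf5 low at 0.390 against 0.0355 CPM. The part of these marker sets in the changes of the 9 genes was not tested. The pluripotency markers summed to 3493 to 3752 CPM in shMed12 mESCs and 5808 to 5864 CPM in shNMC mESCs, and the extraembryonic endoderm markers to 222 to 252 CPM (Ttr at 0) against 350.3 to 420.03 CPM. In bulk libraries, more cells of a type and more RNA per cell cannot be told apart.

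**Figure D3:**
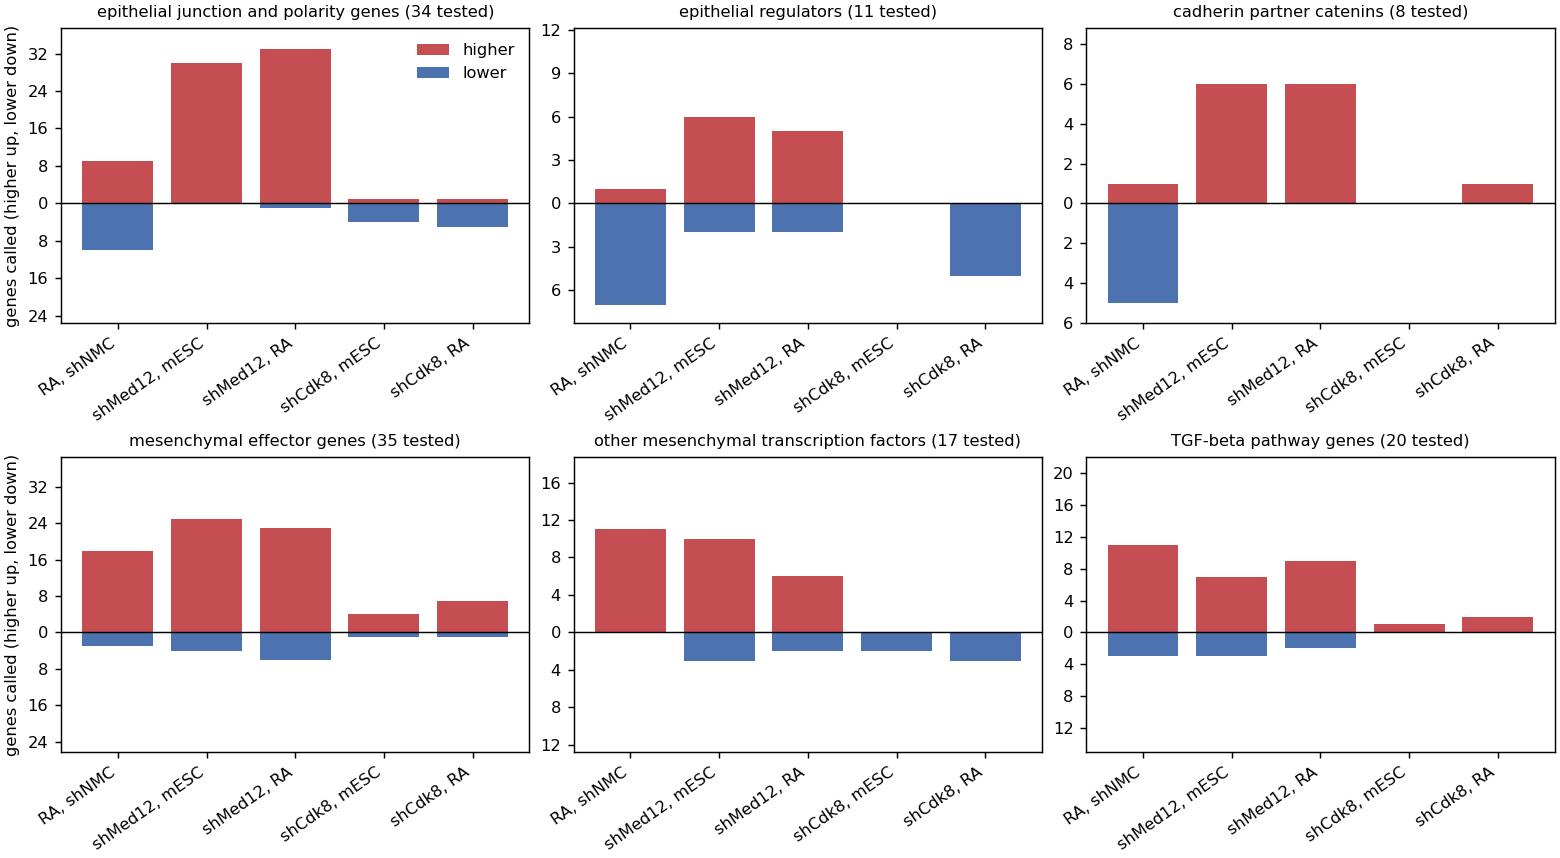
Number of genes called higher (up) and lower (down) in 6 lists around the 9 genes, for RA in shNMC cells and for shMed12 and shCdk8 against shNMC in both states; the number tested stands above each panel. Of 34 epithelial junction and polarity genes, 30 rose in shMed12 mESCs, and 1 rose and 4 fell in shCdk8 mESCs.

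With the Cdk8 hairpin the pair Cdh1 and Zeb1 moved the opposite way. In shCdk8 mESCs, 1 of the 9 genes rose (Zeb1) and 1 fell (Cdh1), where 3.66% of all genes were called (2.24% higher, 1.42% lower); the median log2 change was 0.51 over the 9 genes and 0.00 (4.20e-05) over all. Zeb1 was at 50.9, 55.7 and 55.8 CPM against 33.3, 33.9 and 30.9 CPM in shNMC mESCs. The groups did not overlap, and the level was 1.65-fold higher (log2 0.73, SE 0.13, edgeR adjusted p = 0.0035). Cdh1 was at 454, 526 and 523 CPM against 665, 748 and 694 CPM, 1.40-fold lower (log2 -0.49, SE 0.11, adjusted p = 0.013). Its groups did not overlap either, but without shCdk8 replicate 1 or shNMC replicate 2 the adjusted p of Cdh1 was 0.079 and 0.057.

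Among the other genes, Cdh2 was at 7.10, 8.32 and 7.98 CPM in shCdk8 mESCs against 4.96, 5.13 and 4.62 CPM (log2 0.67, SE 0.22, edgeR adjusted p = 0.087), and Vim at 165, 147 and 126 CPM against 86.9, 103 and 76.3 CPM (log2 0.72, SE 0.23, adjusted p = 0.085). Neither gene overlapped between the groups, and both passed with DESeq2 (adjusted p = 0.033 for Cdh2 and 0.040 for Vim). Snai2 (log2 0.58, adjusted p = 0.13) and Zeb2 (log2 0.51, adjusted p = 0.14) also had no overlap and did not pass. Epcam, Snai1 and Twist1 overlapped between the groups.

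After RA, 3 of the 9 genes rose in shCdk8 cells (Zeb1, Zeb2, Cdh2) and 1 fell (Cdh1), where 7.73% of all genes were called (4.10% higher, 3.64% lower). Cdh1 was at 284, 308 and 374 CPM against 505, 517 and 599 CPM in RA shNMC cells, 1.68-fold lower (log2 -0.75, SE 0.11, edgeR adjusted p = 1.8e-04). Cdh2 was at 13.8, 15.5 and 11.1 CPM against 5.75, 5.95 and 5.03 CPM, 2.42-fold higher (log2 1.27, SE 0.21, adjusted p = 8.0e-04). Neither gene overlapped between the groups; the Cdh1 mean was the lowest of the 8 groups, and the Cdh2 mean was below RA shMed12 only, with overlap.

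Both Zeb factors were up in these cells. Zeb1 was at 52.4, 56.7 and 57.3 CPM against 32.5, 34.5 and 36.7 CPM (log2 0.68, SE 0.13, edgeR adjusted p = 0.0027), and Zeb2 at 19.1, 21.1 and 17.2 CPM against 9.56, 11 and 9.31 CPM (log2 0.94, SE 0.18, adjusted p = 0.0029). Zeb2 shares its locus with an antisense gene in GENCODE M21, and no source used here says whether reads were counted by strand, so its reads may hold both. Epcam was at 90.6, 91.0 and 90.3 CPM against 119.9, 117 and 104 CPM without overlap (log2 -0.32, SE 0.13, adjusted p = 0.13). A fit of only these groups put Epcam past the threshold (log2 -0.33, edgeR adjusted p = 0.021) and called 2744 genes in place of 1259. Same-numbered libraries of these groups deviated together. With the replicate number added to that fit as a block, Epcam (log2 -0.32, adjusted p = 0.00015) and Twist1 (log2 0.31, adjusted p = 0.022) passed. The genes called over all were then 7910.

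The lists around the 9 genes are read beside the 3.66% (mESCs) and 7.73% (RA) of all genes called with the Cdk8 hairpin. Of the 34 epithelial junction and polarity genes, 1 rose and 4 fell in mESCs, and 1 rose and 5 fell after RA. The polarity gene Crb3 (log2 -1.20 in mESCs, -1.25 after RA), the desmosome protein Dsp (-0.64 and -0.54), the adaptor subunit Ap1m2 (-0.78 and -0.71) and the protease inhibitor Spint2 (-0.37 and -0.52) fell in both states. The calls were 3 to 4 in mESCs and 3 to 5 after RA when a library was left out, falling to 3 without shCdk8 replicate 1 or 2 or shNMC replicate 2 or 3 in mESCs, and without RA shCdk8 replicate 2 or 3 or RA shNMC replicate 2 after RA. With the block in a fit of only the groups compared, 8 rose and 14 fell after RA. Of the 11 epithelial regulators, 0 were called in mESCs and 5 fell after RA (Ovol2, Grhl3, Esrp1, Elf3 and Klf4), 1 to 3 with any 1 of the 6 libraries left out.

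Of the 35 mesenchymal effector genes, 4 rose and 1 fell in shCdk8 mESCs (median log2 change 0.30), and 7 rose and 1 fell after RA (median 0.38). The median after RA was 0.34 with genes of 3 reads or fewer over a group set to 3 reads there. The integrin subunit gene Itgav rose in both states (log2 0.40 in mESCs, edgeR adjusted p = 0.0079; 0.64 after RA, 5.1e-05), and Itgb3, another integrin subunit gene, fell in both (log2 -0.77, adjusted p = 0.011; -0.78, 0.0041). The calls in mESCs went from 5 to between 1 and 3 with any 1 of the 6 libraries left out. Those after RA went from 8 to 4 without RA shCdk8 replicate 2 or RA shNMC replicate 1 or 2. In a fit of only the groups compared, 11 rose and 3 fell after RA, and with the block added 17 rose and 3 fell. Of the 17 other mesenchymal transcription factors, 0 rose and 2 fell in mESCs, and 0 rose and 3 fell after RA. In the fit of only the groups compared, 0 rose and 6 fell after RA, and with the block added 3 rose and 8 fell. The 2 in mESCs became 1 without replicate 1 or 2 of shCdk8 or of shNMC.

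Summed markers of other cell types also differed between shCdk8 and shNMC. Those of extraembryonic endoderm were at 471 to 508 CPM against 350.3 to 420.03 CPM in mESCs and at 402 to 484 CPM against 299.9 to 319.8 CPM after RA, without overlap and with none of the 12 at 0. The fibroblast or feeder markers summed to 43.6 to 46.8 CPM in shCdk8 mESCs (Lum, Postn and Fap at 0) and 99.3 to 104 CPM after RA (Fap at 0), above shNMC in either state. Pluripotency markers summed to less than in shNMC, 5118 to 5306 CPM in mESCs and 1683 to 2099.5 CPM after RA, where RA shNMC cells had 2415 to 2827 CPM. The 10 neural progenitor markers summed to 91.3 to 98.3 CPM against 68.3 to 74.6 CPM in mESCs and overlapped after RA, and the trophectoderm sums overlapped in both states. Their part in these changes was not tested.

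Set directly against shCdk8, shMed12 mESCs had higher Cdh1 (log2 1.0, SE 0.11, edgeR adjusted p = 2.2e-07), Epcam (1.04, adjusted p = 1.5e-06) and Snai1 (1.19, adjusted p = 5.0e-04), and lower Zeb1 (log2 -2.57, SE 0.14, adjusted p = 1.6e-11) and Snai2 (-1.05, adjusted p = 5.2e-04). That is 5 of the 9 genes, where 35.8% of all genes were called (18.4% higher, 17.4% lower). A fit of only these groups put Cdh2 (edgeR adjusted p = 0.0045), Vim (0.043) and Twist1 (0.026) past the threshold, 8 of the 9 in all. It called 7428 genes in place of 5833. The replicate block was then added to that fit, as the numbers again paired the libraries. Cdh2 (log2 0.50, adjusted p = 0.00018), Vim (-0.30, adjusted p = 1.7e-06) and Twist1 (0.51, adjusted p = 0.0064) passed there too. Again 8 of the 9 genes were called, with 10267 genes over all. After RA the 2 hairpins differed in 6 of the 9 genes, where 41.4% of all genes were called (21.3% higher, 20.1% lower): Cdh1 (log2 1.6), Epcam (1.37) and Snai1 (1.19) were higher in shMed12 cells, and Zeb1 (-2.38), Snai2 (-0.89) and Zeb2 (-0.85) lower. Cdh2, which had risen with both hairpins after RA, differed by log2 0.09 between them (95% interval -0.35 to 0.53).

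The comparisons with RA share libraries with those of the hairpins, and their values are given side by side. After 24 h of RA without LIF, the repressors other than Zeb1 were higher and Cdh1 was lower in shNMC cells. The 5 calls among the 9 genes were near the share over all genes. Of the 9 genes, 4 rose (Snai1, Snai2, Zeb2, Twist1) and 1 fell (Cdh1) against shNMC mESCs, where 51.4% of all genes were called (27.3% higher, 24.1% lower). Snai1 went from 1.91, 2.3 and 1.40 CPM to 4.70, 4.86 and 3.61 CPM, a 2.34-fold rise (log2 1.22, SE 0.24, edgeR adjusted p = 2.5e-04). Zeb2 went from 5.46, 5.02 and 4.42 CPM to 9.56, 11 and 9.31 CPM, 2.0-fold (log2 1.0, SE 0.19, adjusted p = 1.4e-04). Both moved without overlap, as did Snai2 (1.33 to 1.42 CPM before, 1.86 to 2.73 CPM after, log2 0.82, adjusted p = 0.0023) and Twist1 (1.69 to 2.26 before, 3.21 to 4.07 after, log2 0.89, adjusted p = 0.013). The call of Twist1 was lost without shNMC mESC replicate 2 (adjusted p = 0.058).

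Cdh1 fell from 665, 748 and 694 CPM to 505, 517 and 599 CPM in shNMC cells (log2 -0.38, SE 0.11, edgeR adjusted p = 0.0055). Epcam moved the same way without passing (log2 -0.30, SE 0.13, adjusted p = 0.056). The mesenchymal markers and Zeb1 overlapped before and after RA, with log2 changes of 0.18 (95% interval -0.27 to 0.64) for Cdh2, 0.07 (-0.41 to 0.56) for Vim and 0.08 (-0.20 to 0.36) for Zeb1. Of the lists, 7 of 11 epithelial regulators fell, among them Grhl2 (from 36.7 ± 4.37 to 11.2 ± 0.276 CPM), and 1 rose, Elf3. Of 17 other mesenchymal transcription factors, 11 rose and 0 fell. Of 34 epithelial junction and polarity genes 9 rose and 10 fell, near the shares over all genes. In this comparison 51.4% of all genes were called (27.3% higher, 24.1% lower).

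In shCdk8 cells, RA raised 4 of the 9 genes (Zeb2, Snai1, Twist1, Cdh2) and lowered 2 (Cdh1, Epcam), where 51.7% of all genes were called (26.7% higher, 25.1% lower). Zeb2 went from 7.12, 8.56 and 5.56 CPM to 19.1, 21.1 and 17.2 CPM (log2 1.43, SE 0.19, edgeR adjusted p = 1.8e-06), the largest RA change among the 9 genes in any line. Cdh2 went from 7.10, 8.32 and 7.98 to 13.8, 15.5 and 11.1 CPM (log2 0.79, SE 0.21, adjusted p = 0.0036), and Cdh1 from 454, 526 and 523 to 284, 308 and 374 CPM (log2 -0.64, SE 0.11, adjusted p = 4.3e-05). Neither gene overlapped before and after. A fit of only these groups put Vim (log2 -0.49, edgeR adjusted p = 0.0021) and Snai2 (log2 0.49, adjusted p = 0.026) past the threshold as well. It called 9967 genes in place of 8422. The replicate block was then added, as the numbers paired these libraries. The adjusted p was then 8.2e-08 for Vim (log2 -0.49) and 0.0066 for Snai2 (log2 0.48), and 12176 genes were called.

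In shMed12 cells, RA raised 3 of the 9 genes (Snai1, Snai2, Zeb2) and lowered 0, where 37.1% of all genes were called (19.6% higher, 17.5% lower). Snai1 went from 4.94, 5.44 and 4.19 CPM to 10.1, 11.5 and 8.41 CPM (log2 1.04, SE 0.23, edgeR adjusted p = 0.0013). Zeb2 went from 6.58, 6.54 and 6.67 to 9.84, 8.90 and 13.1 CPM (log2 0.69, SE 0.19, adjusted p = 0.0061), and Snai2 from 0.946, 0.923 and 1.07 to 1.29, 1.66 and 1.63 CPM (log2 0.64, SE 0.21, adjusted p = 0.023). No group overlapped, but Zeb2 did not pass without RA shMed12 replicate 3 (adjusted p = 0.053), nor Snai2 without RA replicate 2 or 3 or mESC replicate 1 or 2 (0.069 to 0.083). The number of genes that rose was then 2, and 1 without RA shMed12 replicate 3. Cdh1 changed by log2 -0.03 (95% interval -0.26 to 0.19).

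**Figure D4:**
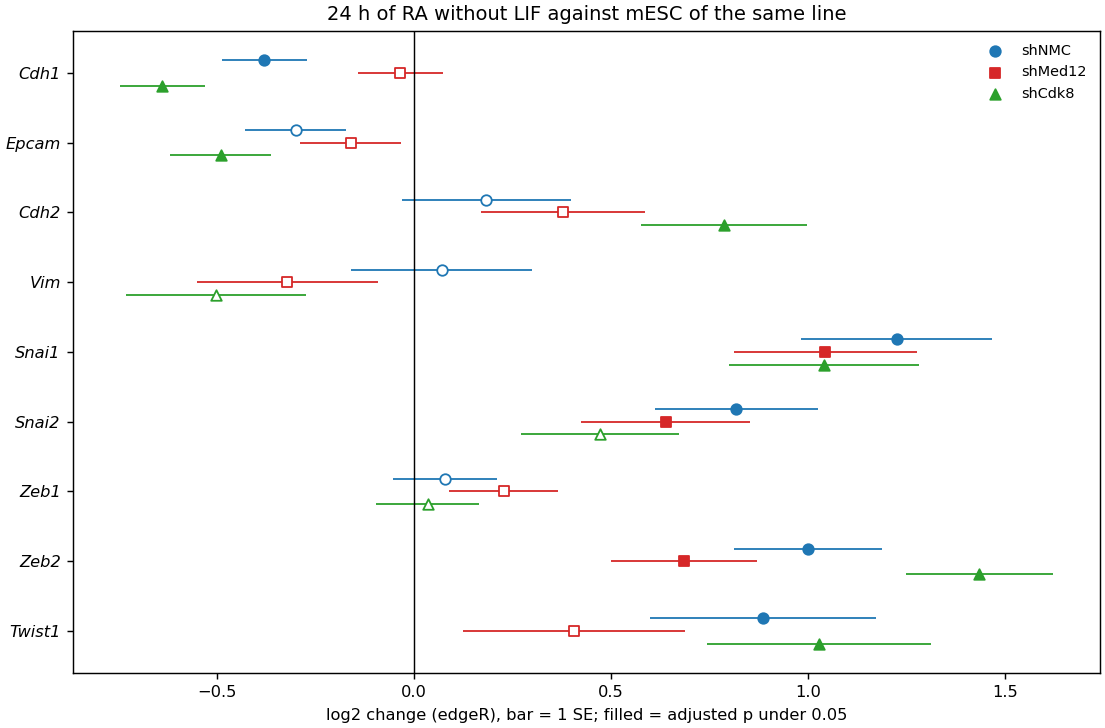
Log2 change of each of the 9 genes (horizontal axis) after 24 h of RA without LIF, against mESCs of the same line, for shNMC (circles), shMed12 (squares) and shCdk8 (triangles), with bars of 1 SE; filled symbols passed the adjusted threshold. Snai1 and Zeb2 rose in all 3 lines, by 1.04 to 1.22 and by 0.69 to 1.43, and Cdh1 fell in shNMC and shCdk8 cells.

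Whether a hairpin acted differently after RA than in mESCs was tested as an interaction, which is the same test as whether RA acted differently in the 2 lines. For shMed12, edgeR called 0 of the 9 genes, where 5.04% of all genes were called; 1 of the 9 had an unadjusted p under 0.05, Cdh1 (log2 difference 0.34, SE 0.15, adjusted p = 0.22), and DESeq2 called 0. For shCdk8, edgeR called 0 of the 9, where 0.0369% of all genes were called; 0 had an unadjusted p under 0.05, and DESeq2 called 0. The difference was 0.60 for Cdh2 (95% interval -0.03 to 1.24) and 0.43 for Zeb2 (-0.12 to 0.99). With the replicate block in a fit of only the groups compared, Cdh1 passed for shMed12 (log2 difference 0.30, edgeR adjusted p = 0.024). For shCdk8, Cdh2 (0.59, adjusted p = 0.046) and Vim (-0.55, adjusted p = 0.027) passed. The genes called over all went from 820 to 3708 and from 6 to 305. Without the block that fit called 0 of the 9 for either hairpin, with 2237 and 38 genes over all. Same-numbered libraries did not deviate together in every pair of groups behind these tests. For the other members, a gene called in one line or state and not in the other was not shown to differ between them by any of these fits.

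The ratio of the 2 cadherins within a library does not depend on how libraries are scaled. In shNMC mESCs there were 0.747, 0.686 and 0.666 Cdh2 reads for every 100 Cdh1 reads, and after RA 1.14, 1.15 and 0.839. In shMed12 cells the ratio was 1.22, 1.14 and 0.952 in mESCs and 1.59, 1.47 and 1.35 after RA. In shCdk8 cells it was 1.56, 1.58 and 1.53 in mESCs, a narrow range, and 4.86, 5.02 and 2.98 after RA, the highest of any group.

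Each hairpin group lay above its shNMC group without overlap, and each RA group above its mESC group. Over both states the mean log2 difference in the ratio was 0.58 for shMed12 and 1.59 for shCdk8 against shNMC, each with p = 0.005, the smallest that the two-sided exact permutation test within states can give (Benjamini-Hochberg adjusted 0.0067 over 4 tests). Over the 3 lines RA raised the ratio by a mean log2 of 0.80 (exact permutation p = 0.00025, the smallest this design can give, adjusted 0.001), by 0.56 in shNMC, 0.41 in shMed12 and 1.42 in shCdk8 cells. Cdh2 was higher than in shNMC cells with either hairpin, by log2 1.17 in mESCs and 1.37 after RA with shMed12 and by 0.67 (not past the threshold) and 1.27 with shCdk8. Cdh1 was higher with shMed12 (log2 0.51 and 0.85) and lower with shCdk8 (-0.49 and -0.75). For shRing1b against untransfected cells the difference was -0.16 (exact p = 0.9; 3 libraries against 3 cannot go below 0.1), and its sign turned without untransfected replicate 2 (0.26) or with shNMC as the control (0.01).

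**Figure D5:**
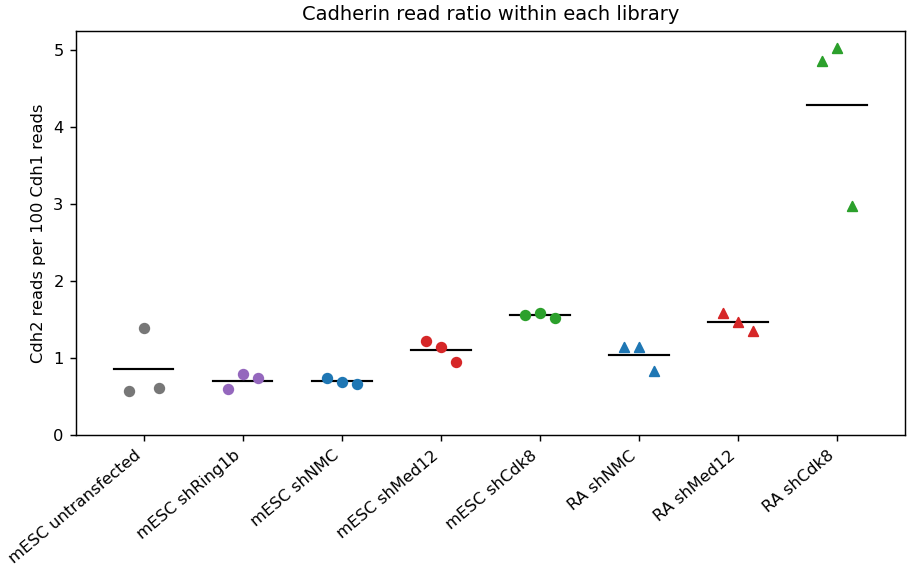
Cdh2 reads per 100 Cdh1 reads (vertical axis, from 0) in each library, by group; points are libraries and lines are group means. The 3 RA shCdk8 libraries lie at 2.98 to 5.02, above all other libraries, which lie at 0.568 to 1.59.

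With the Ring1b hairpin the libraries of the group spread widely, and the library that goes against its label is 1 of 3. Snai1 was at 4.51, 5.43 and 2.35 CPM in shRing1b mESCs and at 2.78, 2.08 and 1.89 CPM in untransfected mESCs. It was the 1 gene of the 9 called (log2 0.86, SE 0.25, edgeR adjusted p = 0.025), where 15.1% of all genes were called (9.68% higher, 5.42% lower), although library 3 fell inside the range of the controls. Without that library Snai1 (log2 1.14, adjusted p = 0.00054) and Twist1 (log2 1.23, adjusted p = 0.00047) were called; Twist1 stood at 2.90, 5.47 and 1.34 CPM against 1.93, 1.68 and 1.75 CPM, and 3900 genes were called over all in place of 2459.

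Leaving out untransfected replicate 2 or 3, or shRing1b replicate 1 or 2, ended the call of Snai1 (adjusted p = 0.065 to 0.13). Leaving out untransfected replicate 1 instead added Cdh2 as lower (log2 -0.65, adjusted p = 0.048). A fit of only these 6 libraries called 0 genes of 14378, with 1626 at an unadjusted p under 0.05, of which 0 were among the 9, and 355 by DESeq2, also with 0 among the 9. Vim (74.4, 125 and 190.3 CPM against 105, 148 and 99.8 CPM) and Epcam (209, 131 and 126 CPM against 142, 152 and 148 CPM) each had 1 library far from the other two and overlapped the controls. Vim had a log2 change of 0.15 with all libraries and -0.23 without the library labelled replicate 3. Markers of extraembryonic endoderm, 12 in number, summed to 280 to 3599 CPM in the shRing1b libraries and 445 to 681 CPM in untransfected ones, with overlap and none at 0. The trophectoderm markers (95.7 to 151 CPM against 49.4 to 69.1 CPM, none of 11 at 0) and the fibroblast or feeder markers (58.6 to 122 CPM against 29.7 to 44.4 CPM) were higher in each shRing1b library than in any untransfected one. Of the 15 fibroblast or feeder markers, 8 reached 1 CPM with shRing1b and 5 without, with Fap at 0 in the former and Postn, Fap and S100a4 in the latter. The part of these markers in the values of the 9 genes was not tested.

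In shNMC against untransfected mESCs, edgeR called 0 of the 9 genes, 0 had an unadjusted p under 0.05, and DESeq2 called 0, where 0.00614% of all genes (1 gene) were called. The largest differences were Vim (log2 -0.40, 95% interval -0.89 to 0.09) and Cdh2 (log2 -0.28, -0.75 to 0.18), the latter with untransfected replicate 2 at 9.50 CPM and the other two at 3.97 and 4.49 CPM. This contrast crosses the 2 sets of libraries named above, so hairpin and set cannot be told apart.

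Genes whose log2 group means followed those of the 9 most closely were ranked by Pearson's r over the 8 groups, among 11224 genes that reached 5 CPM in at least 1 group mean. Nearest to Cdh1 was Crb3, an apical polarity gene (r = 0.988), followed by Ap4b1 (0.984) and Sbds (0.979). Nearest to Epcam were Cdc20 (0.996), Fam100a (0.994) and St14 (0.991), the last an epithelial membrane protease. Nearest to Zeb1 were Ccdc38 (0.984), Mbnl1, a splicing factor (0.983), and Sult4a1 (0.982), and nearest to Zeb2 were Zfhx4 (0.987), Hspa13 (0.984) and Pja2 (0.984). Snai1 was followed by Mtap6 (0.996), Surf4 (0.993) and Lemd2 (0.987), Cdh2 by Fech (0.971), Hdac10 (0.967) and Phtf1 (0.960), and Vim by Tmem144 (0.903), Cmtm7 (0.899) and Jmy (0.888). Snai2 and Twist1 did not reach 5 CPM in a group mean. The points share libraries and controls, and the values are descriptions.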

How the data were processed

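The raw counts that the authors deposited, by gene symbol and for each library, were used. The submitters' processing notes name build mm9 and the tools HTSeq 0.6.1p1, DESeq2 1.6.3, SAMtools 1.2, STAR 2.3.1z13 and bcl2fastq 1.8.4, without their roles; no source used here gives the annotation or the strand setting. The 5 entries that name no gene stayed out of library sizes: reads without a unique place (20.0% to 49.1%), in no feature (8.70% to 17.3%) or ambiguous (0.111% to 0.197%).

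Counts were tested with edgeR 4.0.16 in R 4.3.3: filterByExpr kept 16280 genes, libraries were scaled by TMM, and a robust two-sided quasi-likelihood test used a mean for each group with all 24 libraries in the fit, leaving 16 degrees of freedom. A gene was called at a Benjamini-Hochberg adjusted p under 0.05 over all genes tested. SEs come from the log2 change and its F value, and intervals are 95%. The floor of 3 counts was 0.0523 to 0.110 CPM. All replicate pairs differed by more than counting noise, with a mean chi-square of 7.17 to 126 for a gene. The model was tested on simulated data for shMed12 against shNMC in mESCs. It recovered 43.3% of changes of 1.5-fold, 85.1% of 2-fold and 100% of 4-fold, and called 10 unchanged genes among 15957 genes. A gene that did not pass may thus still have changed by such a small fold. DESeq2 1.42.0, other scaling, no filter, fewer libraries and a replicate block were tried as alternatives.

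The 9 genes, the pathway lists and the comparisons were chosen with earlier results of these data known. From each list, up to 4 called genes with the largest change and at least 5 CPM could be named; some of these are not reported here. Same-numbered libraries were taken as paired where the deviations of all 3 pairs correlated above 0.1: RA against mESC in shCdk8 (0.36, 0.17, 0.37), shCdk8 against shNMC after RA (0.48, 0.29, 0.54) and shMed12 against shCdk8 in mESCs (0.20, 0.16, 0.34), 3 of 11 pairs of groups; the labels name no shared batch. Untransfected RA cells and shZrf1 cells, named in the series text, are not analysed here. Promoter windows are from RefSeq. Exon lengths are on GRCm38, not the mm9 of the counts.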

Additional observations from a re-analysis of the deposited data

Results flagged for a closer look

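The interaction test of the hairpin effect between mESCs and RA cells called 0 of the 9 genes. Pathway genes named by rule that it called for shMed12 are given as the effect after RA minus the effect in mESCs (edgeR, adjusted p = 8.5e-05 to 0.036). On the epithelial side the log2 difference was positive for the cadherin Cdh3 (1.45), the claudin Cldn4 (1.14) and Spint2 (0.47), and negative for the desmosome protein Dsp (-1.14) and the factor Elf3 (-0.82). On the mesenchymal side it was negative for the matrix protein Tnc (-2.81), Ctgf (-1.88) and Col1a1 (-1.40), and for the primitive streak and mesoderm factors T (-3.83), Hand1 (-2.04) and Eomes (-1.76). Hand1 and Eomes are also on the list of trophectoderm markers. In the TGF-beta list it was negative for the receptor Tgfbr3 (-1.17) and positive for the inhibitor Smad7 (0.77), and among corepressors it was negative for Suv39h1 (-0.81). With a library left out in turn, the 1 call among corepressors was lost in 7 of 12 runs, and the 1 among epithelial regulators in 1 of 12. The 10 calls among mesenchymal effector genes ranged from 4 to 11.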

How the results depend on the processing

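Of the 117 results of the 9 genes (13 comparisons), 43 were called, 37 of these in every alternative run; 6 were lost in at least 1, 25 of the 74 uncalled ones passed in at least 1, and 0 of the 43 changed sign. Among 312 results of other named genes, 71 changed call. Scaling by median ratios moved the median of all genes by under 0.1 (log2) in each comparison. The list counts under each alternative were added after seeing the data.

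With DESeq2, shCdk8 in mESCs had 4 of the 9 genes and 1151 genes in all, and shRing1b 2 of the 9 and 2922 in all. The interactions had 1250 (shMed12) and 27 (shCdk8) genes. With only the groups compared in the fit, calls among the 9 genes were 6 for RA in shMed12, 8 for shMed12 in mESCs, 5 for shCdk8 in mESCs, 0 for shRing1b and 8 for shMed12 against shCdk8 in mESCs; genes called were 8162 for RA in shMed12 (6044 with all groups), 8051 for shMed12 in mESCs (6594), 7428 for shMed12 against shCdk8 in mESCs (5833), 2334 for shCdk8 in mESCs, 2744 after RA, 0 for shRing1b, 0 for shNMC against untransfected, and 2237 and 38 for the interactions of shMed12 and shCdk8.

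With the replicate block in that fit, calls among the 9 genes were 8 for RA in shMed12, 8 for shMed12 in mESCs and 6 for shCdk8 in mESCs. They were 0 for shRing1b, 8 for shMed12 against shCdk8 in mESCs, 1 for the shMed12 interaction (Cdh1) and 2 for that of shCdk8 (Cdh2, Vim). Genes called over all were 9788 for RA in shMed12, 9169 for shMed12 in mESCs, 4116 for shCdk8 in mESCs and 0 for shRing1b. After RA they were 10233 for shMed12 and 7910 for shCdk8. For shMed12 against shCdk8 they were 10267 in mESCs and 10447 after RA. For the interactions of shMed12 and shCdk8 they were 3708 and 305. Outside the 3 comparisons named as paired, the libraries share only a number. The cause of these differences was not tested.

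Leaving out each library in turn gave 1 to 3 of the 9 genes for RA in shMed12, 1 to 2 for shCdk8 in mESCs and 0 to 2 for shRing1b. Genes called ranged from 4572 to 5322 for RA in shMed12, and with shCdk8 from 482 to 922 after RA and 170 to 282 in mESCs. They ranged from 1328 to 3900 for shRing1b, 489 to 830 for the shMed12 interaction and 3 to 6 for that of shCdk8. The cadherin ratio of shRing1b ranged from -0.388 to 0.256, turning sign without untransfected replicate 2, and was 0.00966 with shNMC as the control. Reads limit Snai2 and Twist1 most, with 121 to 805 reads per group of 3 libraries.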

Other observations

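Some lists around the 9 genes were not described above. Of 12 corepressors of Snail and Zeb factors tested, 5 rose and 2 fell in shMed12 mESCs (median log2 change 0.10) and 7 rose and 2 fell after RA (median 0.39), where 40.5% and 41.9% of all genes were called, among them the histone methyltransferase gene Ehmt2, at 176 ± 23.9 against 98.5 ± 4.80 CPM (SD, n = 3) in mESCs. Of 8 splicing factors tied to this transition, 4 rose and 1 fell in shMed12 cells in either state (medians 0.40 and 0.26), beside the same 40.5% and 41.9%. With RA in shNMC cells 0 of the 8 rose and 5 fell, where 51.4% of all genes were called, and the epithelial factor Esrp1 went from 75.4 ± 3.93 to 32.1 ± 3.06 CPM. Of 14 other classical cadherins tested, 4 rose and 1 fell in shMed12 mESCs (5 and 3 in a fit of the compared groups alone) and 4 rose and 2 fell after RA (medians 0.24 and -0.11), again beside 40.5% and 41.9% of all genes. Cdh3, P-cadherin, was at 41.7 ± 6.25 against 10.8 ± 2.75 CPM after RA. The 10 neural progenitor markers summed to 124 to 129 CPM in shMed12 mESCs and 68.3 to 74.6 CPM in shNMC mESCs.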
